A study of Homo sapiens with 3 samples.

Results

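The genes described here make the small nuclear RNAs (snRNAs) U2, U4 and U5 of the major spliceosome and the snRNA U7. They are RNU5A-1, RNU5B-1, RNU2-2P, RNU2-1, RNU4-1, RNU4-2 and RNU7-1, 7 genes in 6 windows of the hg19 genome, since the 2 U4 genes share a window. The windows were 2000 to 3500 bp long, except that of the RNU2-1 locus, which was 31000 bp. Every deposited peak that overlapped a window was a member: 11 of the 21555 XPB peaks and 11 of the 14570 XPD peaks. The set was chosen on earlier results from these same lists, and the opposite XPD to XPB height ratios at the 2 U5 windows were part of that choice. All values below are therefore a description, and none carries a test. No hg19 annotation was used, so the gene names are those that came with the windows; in the RefSeq gene table (GRCh38.p14) all 7 genes were found, each on the chromosome of its window.

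The study mapped XPB and XPD, the helicases of the transcription and repair factor TFIIH, by chromatin immunoprecipitation and sequencing (ChIP-seq) in HT1080, an established human fibrosarcoma cell line. The groups used were 1 XPB library (rabbit polyclonal anti-XPB) and 1 XPD library (rabbit polyclonal anti-XPD), both from formaldehyde-crosslinked nuclei of cells grown in serum-containing medium, with no treatment named, and from the same chromatin pool. An unenriched input library also belongs to the series and was not analysed here. The protocol text common to the libraries mentions a CSB antibody, which differs from their antibody fields (anti-XPB and anti-XPD), and the fields were used.

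The snRNA genes differ from protein-coding genes in their promoters, which carry a proximal sequence element bound by the factor SNAPc and a distal enhancer-like element. RNA polymerase II transcribes U2, U4, U5 and U7 from them, with TFIIH among its general initiation factors; XPB opens DNA at the start site, and XPD has a mainly structural part in initiation and unwinds DNA in nucleotide excision repair. U2 snRNA pairs with the intron branch point, U4 holds U6 inactive until the spliceosome is activated, U5 contacts the exon ends, and U7 acts outside splicing, in cutting the 3′ ends of replication-dependent histone messages. Many snRNA genes have near-identical copies or pseudogenes: the gene table lists 68 pseudogenes named for U2, 89 for U4, 29 for U5 and 168 for U7. How reads that match several places were aligned is not given in the sources used here, so heights at these genes are uncertain to that extent.

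Each peak has a height, the number of sequenced fragments stacked over its highest base (the summit), and a score, which rises with the negative log10 of the peak caller's p-value and is limited to 3100. The number of reads per library is not known from the lists. Heights were therefore ranked within a list, and between lists they were compared only as the log2 ratio of XPD to XPB height minus the median of that ratio over all 5536 pairs of best-overlapping peaks (0.11). Ranges in parentheses after a height or ratio are exact 95% intervals for counting error only, with 1 library per antibody; PCR copies are not independent molecules.

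All 6 windows held peaks of both helicases, and most of these peaks were among the tallest of their lists. The median member height was 37 fragments for XPB, against 11 over all XPB peaks, and 60 for XPD, against 13 over all XPD peaks. These medians lay at the 99.3 and 99.6 percentiles of their lists. A height of at least 50 fragments was reached by 3 of 11 XPB members, where 0.343% of all XPB peaks did so, and by 6 of 11 XPD members, where 0.556% of all XPD peaks did so. Scores of at least 300 were found for 7 of 11 XPB members (14.3% of all XPB peaks) and 9 of 11 XPD members (11.9% of all XPD peaks). Each list also had low members, down to 8 fragments for XPB and 9 for XPD, so the windows were not uniformly tall.

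**Figure D1:**
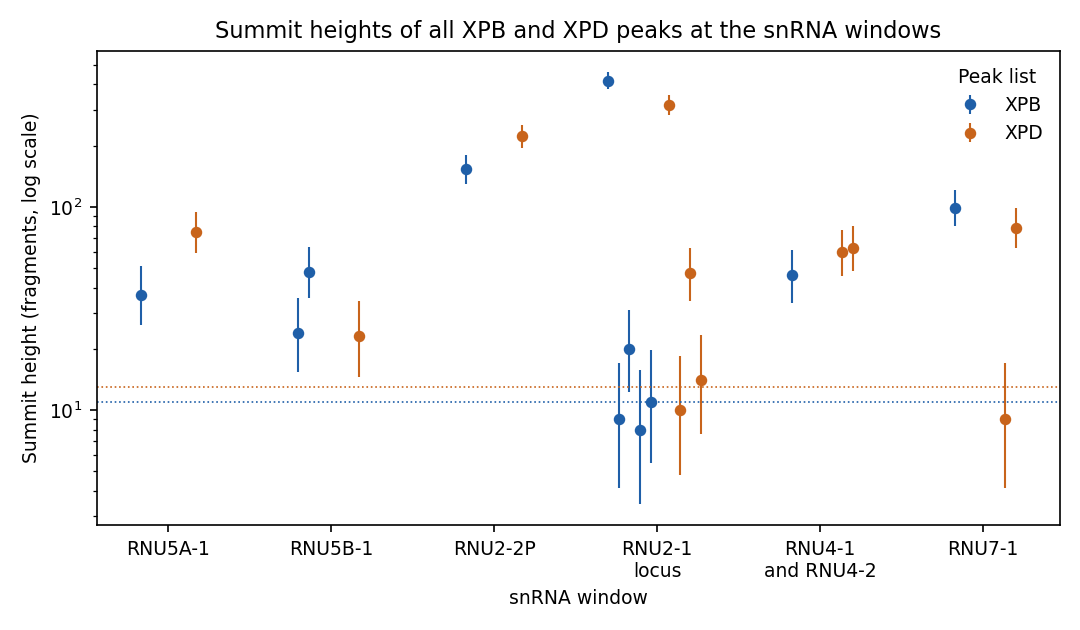
Height of every XPB (blue) and XPD (orange) peak at the 6 snRNA windows, in fragments on a log axis, with exact 95% counting intervals as bars. Dotted lines are the medians of the whole lists (11 for XPB and 13 for XPD). The tallest peak is in the RNU2-1 locus in both lists. The tallest peaks of RNU5A-1 and RNU5B-1 are alike within counting error for XPB, and RNU5A-1 is taller for XPD.

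The RNU2-1 locus, where U2 genes are arranged as a tandem array, had the tallest summit of the set in both lists. The peaks of this 31000 bp window were not placed relative to the RNU2-1 gene, since no hg19 annotation was used. Below, RNU2-1 peak means a peak of this window, not one assigned to the gene. Whether the copies of the array add to the height was not tested. The tall XPB peak ran on chromosome 17 from 41438036 to 41439127 with 417 fragments (378 to 459), and the tall XPD peak from 41437966 to 41439102 with 317 (283 to 354). Both scored at the limit of 3100, and their summits were 10 bp apart. Their ranks by height were 6 for XPB and 7 for XPD. The log2 height ratio was -0.50 (-0.72 to -0.29), so this site leaned towards XPB relative to the median pair.

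The same locus held lower peaks at 3 other positions. Beside the tall peak, after a gap of 102 bp for XPB and 82 bp for XPD, lay a low peak with 9 XPB and 10 XPD fragments. Its summits, 41439521 for XPB and 41439515 for XPD, were 6 bp apart. A separate peak followed 6799 bp from the tall XPB summit and 6812 bp from the tall XPD summit. That peak had 20 XPB fragments (12.2 to 30.9) from 41444800 to 41446326, and 47 XPD fragments (34.5 to 62.5) from 41445100 to 41445986.

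This separate peak had the largest log2 ratio of all pairs at the snRNA windows, 1.13 (0.34 to 1.96). The comparison can also be made within each list, where depth does not enter: the tall peak was 20.9 times (13.3 to 34.5) as high as the separate one for XPB and 6.74 times (4.95 to 9.37) for XPD. The scores did not differ in the same way, at 581 for XPB and 587 for XPD, and the XPB peak was wider, 1527 bp against 887 bp. At the far end of the window, the XPB list gave low peaks of 8 and 11 fragments, and the XPD list a single peak of 14 fragments over 2236 bp that overlapped both. The XPD summit lay 490 and 976 bp from these XPB summits, and the XPB summit of 11 fragments was just outside the window.

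RNU2-2P, a U2 gene outside the array, was the next tallest site of the set. Its XPB peak on chromosome 11 from 62608215 to 62610349 had 153 fragments (130 to 179), and its XPD peak from 62608246 to 62610099 had 222 (194 to 253). Both scored 3100, and the summits at 62609258 and 62609256 were 2 bp apart, the closest of the set. The log2 ratio was 0.43 (0.13 to 0.74), so RNU2-2P and the tall RNU2-1 peak lay on opposite sides of the median pair. Their counting intervals did not overlap, but both ratios were within the usual spread of tall pairs. Over the 588 pairs with at least 20 fragments in both lists, centred on their own median, the 5th and 95th percentiles were -0.53 and 0.56. On that scale RNU2-2P was at 0.54 and the tall RNU2-1 peak at -0.40. In the gene table RNU2-2P (listed as RNU2-2) lies inside the protein-coding gene WDR74, and the peaks at this window cannot be told apart between the 2 genes.

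RNU7-1 came next in both lists. Its XPB peak on chromosome 12 from 7051833 to 7054176 had 99 fragments (80.5 to 121) and a score of 2445, and its XPD peak from 7052492 to 7054031 had 79 (62.5 to 98.5) and a score of 2203. The summits were 14 bp apart, and the log2 ratio was -0.43 (-0.88 to 0.01), an interval that includes the median pair. The XPD list split this region: a low peak of 9 fragments from 7051417 to 7052463 adjoined the tall one after 28 bp, and the single XPB peak overlapped both. RNU7-1 lies inside C12orf57 in the gene table, and here too the snRNA gene and its host cannot be told apart.

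The U4 window was the widest member of the XPB list. A single XPB peak covered 3088 bp on chromosome 12 from 120728293 to 120731380, with 46 fragments (33.7 to 61.4) at its only listed summit, 120731025. The XPD list had 2 peaks over the same stretch, 6 bp apart, from 120728301 to 120730279 and from 120730286 to 120731400. Their heights were 60 (45.8 to 77.2) and 63 fragments (48.4 to 80.6), with summits 1399 bp apart, so the 2 XPD summits did not differ beyond counting error.

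The XPB summit lay 9 bp from the second XPD summit, and against it the log2 ratio was 0.35 (-0.22 to 0.93). By largest overlap the XPB peak instead paired with the first XPD peak, whose summit was 1390 bp away, with a log2 ratio of 0.28 (-0.30 to 0.86). A list with 1 summit per peak gives no XPB height at the first XPD summit, so the XPB level there was not compared. In the gene table RNU4-2 comes before RNU4-1 along the chromosome, and both overlap SIRT4; the summits were not assigned to one gene or the other.

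At the U5 genes the 2 heights differed beyond counting error for XPD and not for XPB. RNU5A-1, on chromosome 15, had 37 fragments (26.1 to 51.0) in an XPB peak that ran from 65587848 to 65589223, and an XPD peak from 65587867 to 65589159 with 75 (59.0 to 94.0). RNU5B-1 had 2 XPB peaks, from 65596056 to 65596647 with 24 fragments (15.4 to 35.7) and from 65596655 to 65598224 with 48 (35.4 to 63.6). Its single XPD peak, from 65595569 to 65597631, had 23 fragments (14.6 to 34.5). In the XPB list RNU5B-1 was therefore as tall as RNU5A-1 within counting error, 1.30 times its height (0.83 to 2.05), whereas in the XPD list RNU5A-1 was 3.26 times (2.02 to 5.45) as tall as RNU5B-1.

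Between the lists, the log2 ratio was 0.91 (0.33 to 1.52) at RNU5A-1 and -1.17 (-1.95 to -0.42) at RNU5B-1. Scores had the same directions: 514 for XPB and 1083 for XPD at RNU5A-1, and 711 and 407 at RNU5B-1. The peak shapes also differed between these genes. At RNU5A-1 the XPB and XPD intervals were alike, 1376 and 1293 bp, with summits 60 bp apart. At RNU5B-1 the XPB signal was divided after 65596647, with 7 bp between the peaks, and the XPD summit at 65597040 lay 350 bp from the taller XPB summit and 740 bp from the lower one. The height of each list was thus read at a different base of the RNU5B-1 window. Against the lower XPB peak, of 24 fragments, the same XPD peak had a log2 ratio of -0.17 (-1.06 to 0.72), an interval that includes the median pair.

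**Figure D2:**
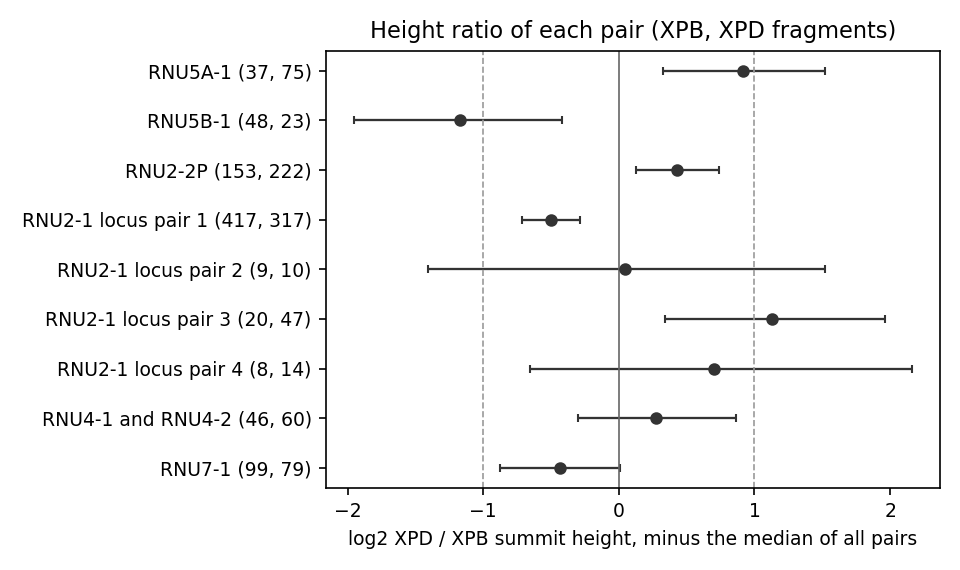
Log2 ratio of XPD to XPB height for the 9 best-overlapping pairs at the snRNA windows, minus the median of all pairs, with exact 95% counting intervals as bars and 2-fold marks as dashed lines. RNU5A-1 (0.91) and RNU5B-1 (-1.17) lie on opposite sides, and the separate peak of the RNU2-1 locus (pair 3, 1.13) is the highest.

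Of the 9 pairs at the snRNA windows, 6 had a ratio above the median of all pairs and 3 below it. With scores in place of heights, the ratio changed sign at the U4 window (-0.46), at RNU7-1 (0.037) and at the low peak beside the tall RNU2-1 peak (-0.034), whose height intervals include the median pair. The median of the 9 was 0.28, and the middle range of all pairs (quartiles) was -0.30 to 0.27. Heights reached 20 fragments in both lists for 7 of these pairs. Of the 7, 1 was more than 2-fold above the median of all pairs (the separate RNU2-1 peak), where 0.170% of the 588 such pairs in the genome were, and 1 was more than 2-fold below it (RNU5B-1), where 1.02% were. Centred instead on the median of these 588 taller pairs, which was 0.00, RNU5A-1 also passed 2-fold: 2 members were above, against 0.340% of pairs, and 1 below, against 0.680%. The rule used these ratios, so nothing is read from the counts. On that scale RNU5A-1, at 1.02 (0.43 to 1.63), was the pair that passed 2-fold by the least, and the nearest pair that did not pass it was on chromosome 2 from 99797212 to 99798062 with 63 XPB and 32 XPD fragments (-0.98).

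**Figure D3:**
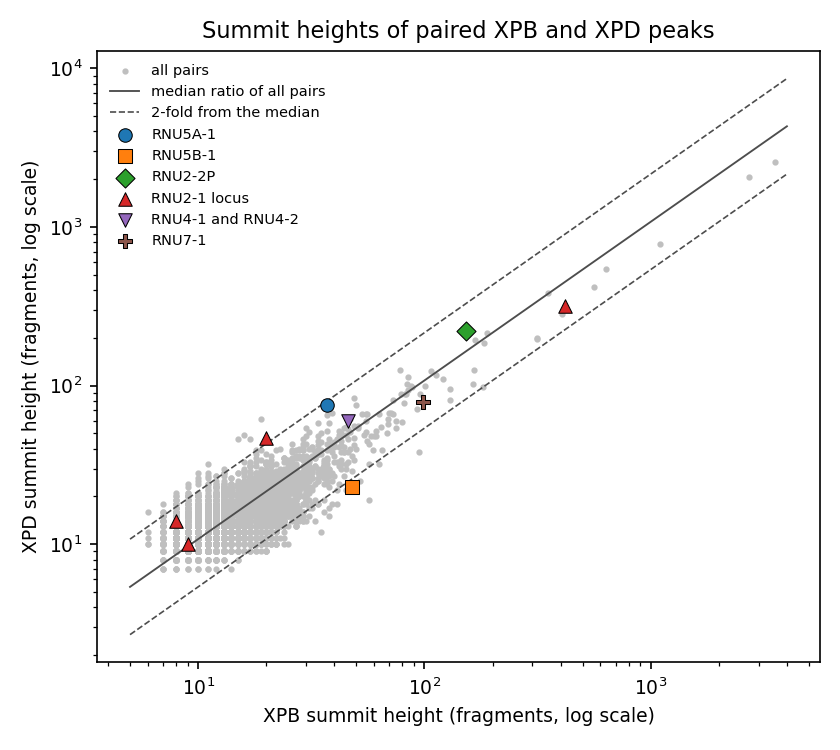
XPB height against XPD height, in fragments on log axes, for all 5536 pairs (grey) and the 9 snRNA pairs (symbols); the solid line is the median ratio and the dashed lines are 2-fold from it. The tall pair of the RNU2-1 locus (417 and 317) and RNU2-2P (153 and 222) are at the tall end, and RNU5B-1 (48 and 23) lies below the lower dashed line.

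Ordered by the tallest peak of each window, the XPB heights were the RNU2-1 locus (417), RNU2-2P (153), RNU7-1 (99), RNU5B-1 (48), the U4 genes (46) and RNU5A-1 (37). The counting intervals of the first 3 were separate from each other and from the rest, and those of the last 3 overlapped. The XPD order was the RNU2-1 locus (317), RNU2-2P (222), RNU7-1 (79), RNU5A-1 (75), the U4 genes (63) and RNU5B-1 (23). Here the windows of the RNU2-1 locus and RNU2-2P stood apart, RNU7-1, RNU5A-1 and U4 overlapped, and RNU5B-1 was below all of them. The lists thus had the same first 3 sites, and the U5 genes took different places among the rest.

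Every member overlapped a peak of the other list, 11 of 11 in each, where 26.6% of all XPB and 38.7% of all XPD peaks did. Among all peaks scoring at least as high as the lowest member, the share was 51.4% for XPB (7007 peaks) and 56.1% for XPD (6751 peaks). Those lowest scores were 221 and 189, against member medians of 581 and 705, so most of these peaks were weaker than the typical member. A reciprocal overlap of at least 50% was met by 7 of 11 members in each list, where 21.7% of all XPB and 32.2% of all XPD peaks met it. A partner summit at most 250 bp away was also found for 7 of 11 in each list, where 17.9% of all XPB and 26.4% of all XPD peaks had one. Summits were within 100 bp in 6 of the 9 pairs, where 50.7% of all pairs were. The median distance was 23 bp, against 97.5 bp over all pairs and 18.5 bp over the 588 taller pairs. The pairs beyond 100 bp were those of the U4 window, RNU5B-1 and the far end of the RNU2-1 locus, where 1 list joined what the other divided.

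Member widths ranged widely. The median width was 1376 bp for XPB, against 833 bp over the list, and 1293 bp for XPD, against 937 bp. All peaks of at least 50 fragments had median widths of 1117.5 bp for XPB and 1253 bp for XPD. The XPD member median was close to the second value, and the XPB member median was above the first. The member medians cover all 11 members of each list, of which 3 for XPB and 6 for XPD reached 50 fragments. The narrowest members, 592 bp for XPB (at RNU5B-1) and 887 bp for XPD (the separate RNU2-1 peak), were below the medians of their lists. For XPB, 3 of 11 members were at least 2000 bp wide (the U4 window, RNU7-1 and RNU2-2P), against 1.18% of all XPB peaks. For XPD 2 of 11 were (RNU5B-1 and the far end of the RNU2-1 locus), against 2.27% of all XPD peaks. Wide members were not always tall: the XPD peak of 2236 bp had 14 fragments, whereas the tallest members, in the RNU2-1 locus, were 1092 and 1137 bp wide.

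**Figure D4:**
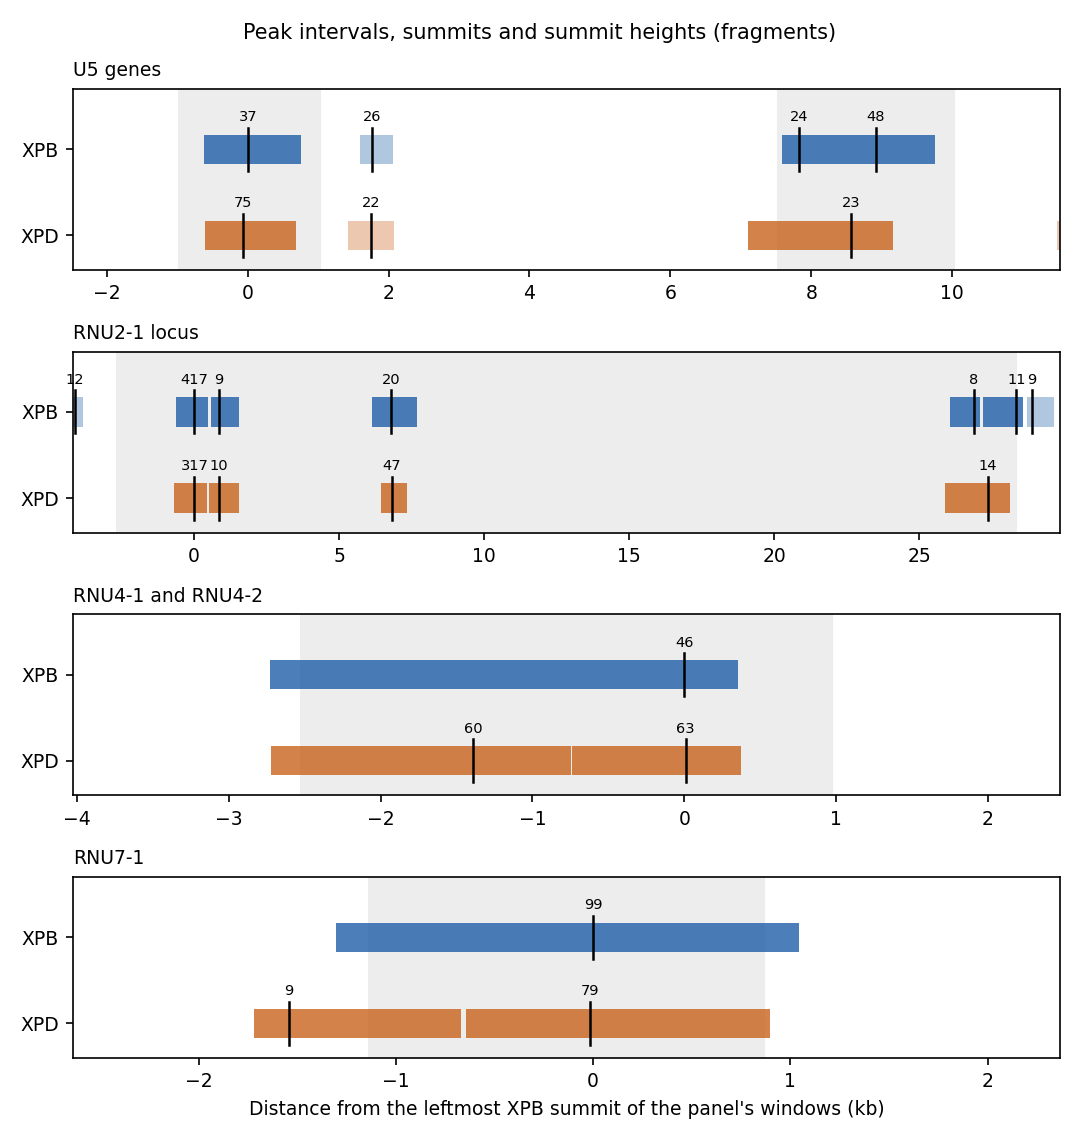
Peak intervals (bars), summits (black ticks) and their heights in fragments at the U5, RNU2-1, U4 and RNU7-1 windows, by distance in kb from the leftmost XPB summit within each panel's windows; grey bands are the windows, and pale bars are peaks outside them. XPB joins the U4 and RNU7-1 regions into 1 peak where XPD has 2, and the reverse holds at RNU5B-1 and the far end of the RNU2-1 locus.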

How the data were processed

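ChIP-seq peak lists for XPB and XPD in HT1080 cells, 1 library each, were used. Library fragments were sized to between 400 and 700 bp, and the ChIP libraries had 12 PCR cycles, per the labels' protocols. The submitters' processing notes name Bowtie 0.12.7, MACS 1.4 and the hg19 build; other settings, and whether the input served as control, are not given in the sources used here. The deposited score and the deposited summit signal (an unscaled fragment pileup height) were read by the usual MACS layout. Scores start at 150 and heights at 6 in the lists.

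Positions are 1-based. Shared peaks overlapped by at least 1 bp; pairs were each other's largest overlap. Ratio intervals are exact binomial (Clopper-Pearson) and height intervals exact Poisson, for counting error only. The overlap code was tested on simulated lists. Windows, members and settings were chosen with earlier results of these data known, and all 7 genes and every peak in their windows are named. The planned promoter motif counts and the other snRNA genes were not analysed here: RNU5A-1, RNU5B-1, RNU2-2P, RNU2-1, RNU4-1, RNU4-2 and RNU7-1 had no entry among the promoter sequences, and peaks were assigned to no further genes. Python 3.11.15, numpy 2.4.6, pandas 2.3.3, scipy 1.17.1 and matplotlib 3.10.9 were used.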

Additional observations from a re-analysis of the deposited data

How the results depend on the processing

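Of 74 alternative values, 63 stayed within 1.5 times the count or within the interval of the reported value, and 11 moved. None changed the sign of a ratio whose interval excluded the median pair. This tally does not measure stability. Many alternatives only changed the centre, to 0.00 or 0.022 from 0.11, which could not take a ratio out of its interval. The intervals of the medians were also wide, such as 18.4 to 99.9 for the XPB height percentile. The number of XPB peaks (11) was 7 at scores of at least 300 and 17 with windows extended by 5 kb. When a partner had to overlap reciprocally by 50%, or to have its summit at most 250 bp away, 7 of 11 members were shared in each list instead of 11 (over all XPB and XPD peaks, 21.7 and 32.2% for the overlap, 17.9 and 26.4% for the summits). With a minimum score of 300 for either list, 7 of 7 XPB members and 8 of 9 XPD members were shared, where 35.3% of all such XPB and 61.8% of all such XPD peaks were. With score in place of height, the log2 ratio was 0.20 at the separate RNU2-1 peak, -0.46 at the U4 window and 0.037 at RNU7-1; the cause was not tested. With all heights of a window summed, the U4 ratio was 1.31, because 2 XPD summits were set against 1 XPB summit, and the RNU5B-1 ratio was -1.75, because 2 XPB summits were set against 1 XPD summit. The 2 pairs with both scores at the limit gave no score ratio. At RNU5A-1 the ratio ranged from 0.91 to 1.26 and at RNU5B-1 from -1.17 to -0.62 over their alternatives other than this sum. Those alternatives did not include the lower XPB peak of RNU5B-1, against which the ratio was -0.17 (-1.06 to 0.72). Pairing by the nearest summit within 1 kb was added after the data were seen. Motif settings were not run. No paired analysis was possible because each antibody had 1 library. Unknown read depth, low summits near 10 fragments and 1 summit per peak limit all comparisons.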

Other observations

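Outside the windows, a shared peak lay between the U5 genes, 742 bp beyond the RNU5A-1 window for XPB and 725 bp for XPD by summit. It had 26 XPB and 22 XPD fragments, with summits at 65590242 and 65590225 on chromosome 15. Within 50 kb of the windows there were 3 to 7 other peaks per window and list. How this number compares with the rest of the genome was not tested. These peaks were lower than the window's tallest summit, but at RNU5B-1 the XPD heights were nearly equal, 22 fragments against 23. Near RNU2-2P the tallest had 30 fragments in both lists, near the U4 genes 12 for XPB and 14 for XPD, and near RNU7-1 16 and 23. The RNU2-1 locus had the tallest neighbour, with 85 XPB fragments at 41393188 and 94 XPD fragments at 41393260 on chromosome 17.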
